A study of Mus musculus with 6 samples.

Results

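The 5 RNAs described here, Malat1, Meg3, Kcnq1ot1, Snhg11 and Rn45s, are noncoding transcripts. They were counted by unique molecular identifiers (UMIs) in spatially barcoded RNA libraries of the adult mouse hippocampus. They were picked by name on abundance values of these same libraries, so that their levels are a description and not a test. All 5 are among the 7507 genes of the count table, and all 5 passed the filter on low counts, which left 43 genes. RNA was copied in place in 10 µm sections of fresh frozen mouse brain, and light was used to ligate an area index onto the molecules of the dentate gyrus (DG, labelled as its granular layer) and then onto those of the CA1, the main output field of the hippocampus. Each of 3 sections gave 1 DG and 1 CA1 library, and the same sections were tagmented for chromatin accessibility, which is not analysed here. The animals carried no stated treatment or allele, and their strain is not given in the sources used here. The labels give an age of 12 weeks in one field and of 8 to 12 months in another. The study calls its replicates biological, but the sources used here do not say whether the 3 sections came from separate animals. The p-values of the permutation, edgeR and DESeq2 tests therefore measure the spread between these sections. Those of Fisher's exact and chi-square tests set single libraries against each other and cover counting error only.

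Malat1 is a long RNA of nuclear speckles, the bodies in which splicing factors gather. Meg3 is expressed from the maternal chromosome of an imprinted cluster and is a common nuclear transcript of neurons. Kcnq1ot1 is expressed from the paternal chromosome, antisense to Kcnq1, and silences neighbouring genes. Snhg11 hosts small nucleolar RNAs in its introns and is known as a neuronal transcript. Rn45s is the long precursor made by RNA polymerase I in the nucleolus, from which ribosomal RNAs are cut. Location in the cell was not measured in these libraries. The reverse transcription primer ended in a run of T, which pairs with poly(A) tails and can pair with runs of A inside a transcript.

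For that reason the longest run of A in the annotated transcripts of Malat1, Kcnq1ot1 and Snhg11 is shown here, in capitals and with 30 bases on each side, read from the RefSeq models on GRCm38.p6, the assembly of mm10. Of the 5 RNAs, 4 were matched to that annotation, and Rn45s was not. The lines are written 5′ to 3′ on the strand of the gene and lie at chr19:5795958-5796029 (minus strand), chr7:143226915-143227015 (minus) and chr2:158382808-158382875 (plus).
Malat1: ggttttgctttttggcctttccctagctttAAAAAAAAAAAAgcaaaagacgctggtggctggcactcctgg
Kcnq1ot1: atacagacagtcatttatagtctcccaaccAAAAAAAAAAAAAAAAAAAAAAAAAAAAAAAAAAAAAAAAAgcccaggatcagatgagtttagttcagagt
Snhg11: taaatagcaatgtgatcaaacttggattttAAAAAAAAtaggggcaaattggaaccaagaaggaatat

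The runs were 12 bases long in Malat1, 41 in Kcnq1ot1 and 8 in Snhg11. The Malat1 run lay 6 bases upstream of the annotated start of Mascrna, the small RNA that is cut from the 3′ end of the Malat1 transcript, and 298 bases before the annotated transcript end. The Kcnq1ot1 and Snhg11 runs were 13834 and 3629 bases before the ends of their transcripts. Runs of 8 or more A numbered 1 in Malat1, 7 in the longest Meg3 transcript, 28 in Kcnq1ot1 and 3 in Snhg11. Such a run was present in 34.0% of 241 other listed long noncoding genes and in 41.9% of 7183 other listed genes of any kind, but these transcripts were shorter, with median lengths of 1952 and 3944 bases. Per kilobase, Malat1 held 0.143 such runs, Kcnq1ot1 0.336, Snhg11 0.490 and Meg3 0.610. The median of the other listed genes was 0 in both sets, with upper quartiles of 0.325 (long noncoding) and 0.246 (any kind). Whether priming occurred at these runs was not tested, since the count table gives no positions within genes.

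The annotated 3′ ends of these transcripts also differed in the letters AATAAA and ATTAAA, the common poly(A) signals. These were searched on the sense strand of the last 60 bases of the longest annotated transcript of each gene and are marked in capitals. For Meg3 the ends of the other annotated transcripts were not searched. The Malat1 window lies downstream of Mascrna in the annotated transcript, so it need not be the end of the Malat1 RNA that was counted. These stretches lie at chr19:5795690-5795749 (minus), chr2:158386415-158386474 (plus), chr12:109568592-109568651 (plus) and chr7:143213111-143213170 (minus).
Malat1 end: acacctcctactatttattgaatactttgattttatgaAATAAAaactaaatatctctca
Snhg11 end: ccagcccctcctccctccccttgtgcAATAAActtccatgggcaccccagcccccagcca
Meg3 end: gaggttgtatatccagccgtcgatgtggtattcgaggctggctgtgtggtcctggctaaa
Kcnq1ot1 end: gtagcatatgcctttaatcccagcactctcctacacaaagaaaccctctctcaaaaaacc

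The letters were found in Malat1 and Snhg11 and were not in this window of Meg3 or Kcnq1ot1. They were present in the same window of 81.0% of the other listed genes and of 69.3% of the other listed long noncoding genes.

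The 4 loci also differed in what else lies there. Malat1 is a single exon of 6983 bases (chr19:5795690-5802672, minus strand) that shares 58 bases with Mascrna. Meg3 spans chr12:109540996-109571729 (plus) with 3 annotated transcripts and 12957 exonic bases. These bases hold Mir770 and Mir1906-1 and overlap the coding gene Rtl1 on the other strand, by 4091 bases for its exon of largest overlap. Kcnq1ot1 is a single exon of 83437 bases (chr7:143213111-143296547, minus). It overlaps exonic bases of Kcnq1 on the other strand, by 125 bases for the exon of largest overlap. Snhg11 has 5 exons and 6118 bases (chr2:158375713-158386474, plus), with 2 small nucleolar RNAs in its introns. The counting used the default options of featureCounts, which ignore strand and leave out reads that overlap exons of several genes. Reads in exonic bases shared by annotated genes would thus be counted for neither. Reads from an intron of a gene on the other strand would be counted for the RNA whose exon they overlap. The annotation that the authors counted with was not examined. Neither Rtl1 nor Kcnq1 is among the listed genes. Rn45s stands for a repeated array, and its counts depend on how the reads from copies were placed. Reads of the precursor and of the ribosomal RNAs cut from it could not be told apart, since the counts give no positions within genes.

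From section 1 to section 3 the library totals were 17999, 4572 and 6298 UMIs for the DG and 9357, 2844 and 4865 for the CA1, so the DG was deeper by 1.92, 1.61 and 1.29 times. A count of 0 allows up to 3 UMIs, which corresponds to between 166.7 and 1055 CPM (counts per 1000000 UMIs of a library). The intervals given are exact 95% binomial (Clopper-Pearson) intervals and, like this limit, cover counting error only. A chi-square test over genes found no difference beyond sampling noise between any 2 libraries of sections 2 and 3. For these 6 pairs chi-square per degree of freedom was between 0.929 and 1.15 and p between 0.146 and 0.684. They include the DG against the CA1 of section 2 (chi-square p = 0.343) and of section 3 (chi-square p = 0.684). The regions were thus not told apart by this test in those sections. Every pair with a library of section 1 differed, but such pairs hold a deeper library and covered 162 to 541 genes, against 74 to 142. The values in the libraries of sections 2 and 3 were not identical, and they were kept as separate samples. Cytosolic ribosomal protein genes (73 genes) took 4.04% (DG) and 4.49% (CA1) of the UMIs in section 1 and 2.18% to 2.52% in the others. Markers of the labelled areas were sparse. Of 15 granule cell markers 9 were listed, with Prox1 and C1ql2 outside the table, and together they took 0.0476% to 0.131% of DG UMIs and 0% to 0.141% of CA1 UMIs. Of 14 CA1 pyramidal markers 9 were listed, at 0.0222% to 0.0437% (DG) and 0.0352% to 0.128% (CA1). The granule cell markers Synpr, Dock10 and Pdzd2 had 6, 7 and 6 UMIs from the DG and 0 from the CA1, while Calb1 and C1ql3 had 2 each in the CA1 and 0 in the DG. These 5 were singled out after their values were seen.

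Malat1 had the most UMIs of all genes in each of the 6 libraries. In sections 1, 2 and 3 it counted 438, 160 and 243 UMIs in the DG library and 294, 133 and 216 in the CA1 library. These are 2.43%, 3.50% and 3.86% of the DG libraries and 3.14%, 4.68% and 4.44% of the CA1 libraries, with an interval of 2.21% to 2.67% in the deepest library, the DG of section 1, and of 3.93% to 5.52% in the shallowest, the CA1 of section 2. The 2 libraries of section 1 were the lowest of their regions, and the CA1 was higher than the DG of the same section in 3 of 3 sections, although the ranges of the regions overlapped. Averaged by region, Malat1 took 3.26% ± 0.741 (DG) and 4.09% ± 0.826 (CA1) of the UMIs (SD, n = 3). The log2 ratio of the DG over the CA1 share was -0.37, -0.42 and -0.20 in sections 1, 2 and 3, with a mean of -0.33 (SD 0.113). An exact permutation test of the 3 DG against the 3 CA1 libraries (two-sided, smallest possible p 0.1) gave p = 0.3. This test, here and for the other RNAs and their ratios, did not pair the libraries of a section. Differences between sections are thus part of its spread, and it does not test the ratios within sections.

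**Figure D1:**
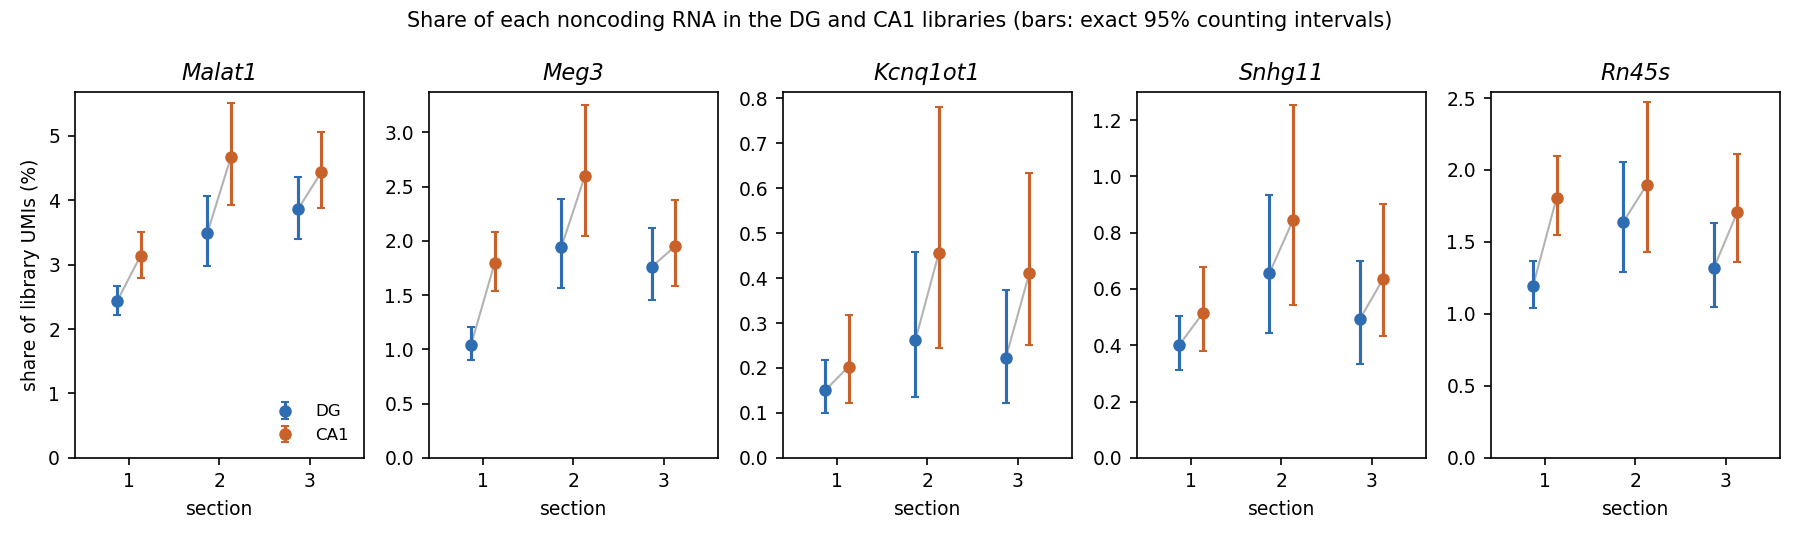
Share of library UMIs (percent, y axis, with a scale of its own in each panel) of each RNA in the DG (blue) and CA1 (orange) library of sections 1 to 3 (x axis); bars are exact 95% counting intervals and grey lines join the 2 libraries of a section. In every panel each CA1 point lies above the DG point of its section, and in the Malat1 panel both libraries of section 1, at 2.43% and 3.14%, lie below the others of their regions.

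Meg3 ranked 2 or 3 among all genes in every library. In the order of the sections, 188, 89 and 111 UMIs came from DG and 168, 74 and 95 from CA1, or 1.04%, 1.95% and 1.76% against 1.80%, 2.60% and 1.95% of the libraries. The DG library of section 1 was far below the other 5, and the regions overlapped. Mean shares were 1.58% ± 0.477 (DG) and 2.12% ± 0.428 (CA1; SD, n = 3). The log2 ratio varied more between sections than that of Malat1, from -0.78 in section 1 through -0.42 to -0.15 in section 3, with a mean of -0.45 (SD 0.318, exact permutation p = 0.2).

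Rn45s was the only 1 of the 5 whose regions did not overlap. The DG gave 215, 75 and 83 Rn45s UMIs and the CA1 169, 54 and 83, which are 1.19%, 1.64% and 1.32% against 1.81%, 1.90% and 1.71% of the libraries. The CA1 values lay close together, at 1.80% ± 0.0964, and all were above the DG values, at 1.38% ± 0.230 (SD, n = 3). The log2 ratios were -0.60, -0.21 and -0.37, with a mean of -0.39 (SD 0.194), and the exact permutation p of 0.1 was the smallest that 3 against 3 libraries can give. Among the 43 tested genes, 9.3% lay lower in the DG with no overlap of libraries, among them Rn45s, Fth1 (a ferritin subunit) and Celf2 (a splicing regulator), of which the last 2 were singled out after their values were seen. The share for the 5 noncoding RNAs was 1 of 5.

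Snhg11 ranked between 5 and 9 among all genes. From the DG 72, 30 and 31 UMIs were counted and from the CA1 48, 24 and 31, or 0.400%, 0.656% and 0.492% against 0.513%, 0.844% and 0.637%. The order of the sections was the same in both regions, with section 2 highest and section 1 lowest. The log2 ratios of -0.36, -0.36 and -0.37 were nearly the same (mean -0.36, SD 0.00698), much closer together than the counting errors of 0.269, 0.395 and 0.366 that these UMI counts give to each ratio. That closeness is therefore no measure of precision. Mean shares were 0.516% ± 0.130 (DG) and 0.665% ± 0.167 (CA1; SD, n = 3, exact permutation p = 0.3).

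Kcnq1ot1 was much rarer than the other 4 and is not one of the most abundant genes, with ranks from 10 to 56. Only 27, 12 and 14 UMIs came from the DG libraries and 19, 13 and 20 from those of the CA1. The shares were 0.150%, 0.262% and 0.222% against 0.203%, 0.457% and 0.411%, so that the 2 regions overlapped through the CA1 library of section 1. Their means were 0.212% ± 0.0570 and 0.357% ± 0.135 (SD, n = 3). Its log2 ratios were the lowest of the 5 on average (-0.44, -0.80 and -0.89, mean -0.71, SD 0.239, exact permutation p = 0.3), with counting errors of 0.432, 0.578 and 0.503. At this depth a difference of that size in a single section was not detectable.

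Levels of different RNAs were set side by side per length, as CPM per kilobase. Over the exonic bases of the annotation, Malat1 had 4674 (DG) and 5852 (CA1), Meg3 1223 and 1634, Snhg11 844 and 1086, and Kcnq1ot1 25.4 and 42.8 (means, n = 3). Malat1 lay above Meg3 by 3.25 to 4.32 times within a library, and Meg3 above Snhg11 by 1.23 to 1.69 times. Although Meg3 was higher than Snhg11 in 6 of 6 libraries, their ranges over libraries, 806 to 2008 and 654 to 1379, overlapped. Kcnq1ot1 was lower than Snhg11 by 21.1 to 36.4 times. Where a primer starts copying near the 3′ end, UMIs need not scale with length, and the figures for Kcnq1ot1 depend on its very long single exon. Those for Meg3 were taken over all its exonic bases, the ones shared with Rtl1 included.

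In the fit across all tested genes, none of the 5 passed. With edgeR's quasi-likelihood test and Benjamini-Hochberg adjustment over 43 genes, 0% of the genes were called (0 of 43, with 3 at an unadjusted p under 0.05, and 0 by DESeq2, also 0 unadjusted). The edgeR log2 fold change (DG minus CA1, after TMM scaling) was -0.21 for Malat1 (SE 0.279, adjusted p = 0.875) and -0.33 for Meg3 (SE 0.249, adjusted p = 0.650). It was -0.29 for Rn45s (SE 0.232, adjusted p = 0.650), -0.25 for Snhg11 (SE 0.253, adjusted p = 0.788) and -0.61 for Kcnq1ot1 (SE 0.359, adjusted p = 0.650) in the same edgeR fit. All 5 values were below 0, with a median of -0.29, against a median of -0.02 over the 43 genes, of which 22 were below 0. Scaled to total UMIs without TMM, the median over the 43 genes was -0.14 and 29 were below 0, and with size factors of the DESeq2 type (RLE) it was also -0.14 with 29 below 0, so the offset of all genes depends on the scaling.

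All 5 RNAs had a lower share in the DG in 3 of 3 sections, and so did 16 of the 43 tested genes (37.2%), or 11 of the 38 others. The median log2 ratio of shares was -0.39 for the 5, -0.16 for all 43 genes and -0.039 for the 38 others. Such a count is not independent over RNAs, which share the libraries and their totals. Summed, they took 5.22%, 8.01% and 7.65% of the DG libraries and 7.46%, 10.5% and 9.15% of the CA1 libraries, a mean log2 ratio of -0.39 (SD 0.129). The 38 other tested genes together took 11.1% to 12.5%. Set over the UMIs of those 38 genes in place of the library total, a choice made after the data were seen, the mean log2 ratios were -0.23 for Malat1, -0.35 for Meg3, -0.61 for Kcnq1ot1, -0.26 for Snhg11 and -0.29 for Rn45s, each below 0 in 3 of 3 sections. In shares of the counts as deposited, which have 1 added to every gene, the difference largely went: Malat1 turned to 0.01, Meg3 and Rn45s were at -0.11 and -0.06, Snhg11 at -0.03 and Kcnq1ot1 at -0.36. The added counts are 29.4% to 62.1% (DG) and 44.5% to 72.5% (CA1) of the deposited totals. In these bulk areas fewer cells that express an RNA and less RNA per cell cannot be told apart.

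**Figure D2:**
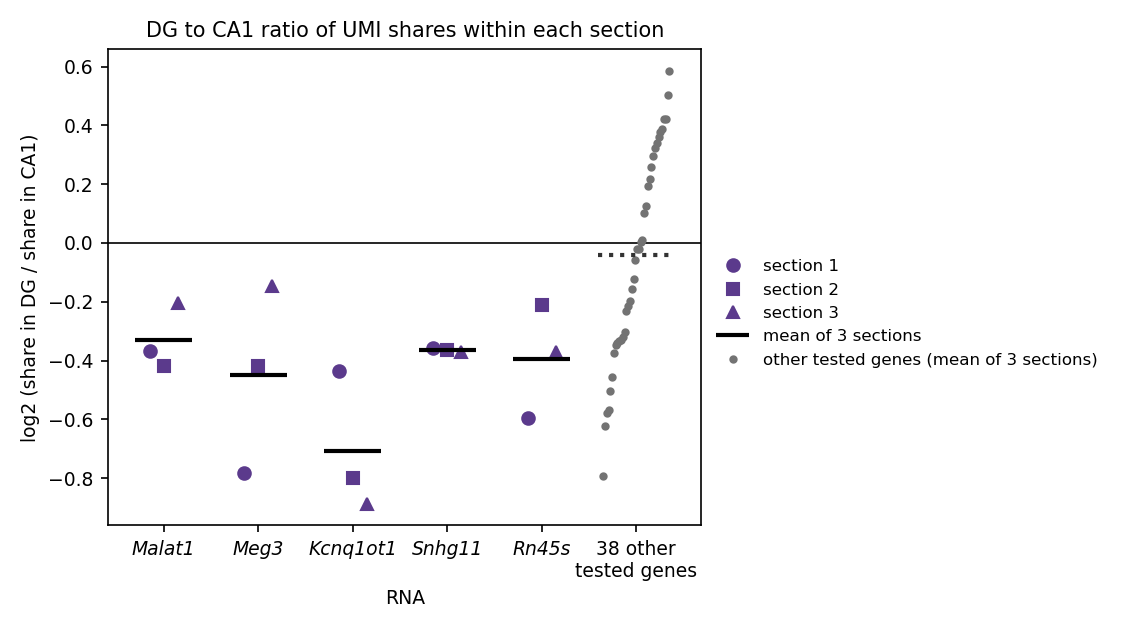
The log2 ratio of the share in the DG over that in the CA1 (y axis) for each RNA (x axis), with circles, squares and triangles for sections 1, 2 and 3, black lines for the mean of 3 sections, grey points for the mean of each of the 38 other tested genes and a dotted line for their median of -0.039. All 15 section values of the 5 RNAs lie below 0, the Snhg11 values almost coincide at -0.36 to -0.37, and the grey points spread from -0.79 to 0.59.

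Within single sections, the 2 libraries could be compared beyond counting error by Fisher's exact test (two-sided, adjusted over the 129 pairs of a tested gene and a section). Of these pairs 3.88% passed, and of the 15 pairs of the 5 RNAs 3 passed, all in section 1, the deepest. There Meg3 was lower in the DG library (adjusted p = 2.4e-05 by Fisher's exact test), as were Rn45s (adjusted p = 0.00312, exact) and Malat1 (adjusted p = 0.0174, exact). In section 2 Malat1 had an adjusted exact p of 0.172, with 160 against 133 UMIs. Such a test compares 2 libraries and not 2 regions, and the RNAs with most UMIs could pass it with the smallest difference.

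Sections differed too. Each region's libraries were compared in pairs of sections by Fisher's exact test, adjusted over 258 pairs of tested gene and sections, of which 3.1% passed. Of 30 such pairs of the 5 RNAs 6 passed, 4 of Malat1 and 2 of Meg3. All 6 set section 1 against another section, and none of the 10 pairs of sections 2 and 3 passed. The same split held over all 43 tested genes, with 8 of 172 pairs passing that involved section 1 (4.65%) and 0 of 86 between sections 2 and 3. Malat1 was lower in section 1 than in sections 2 and 3 in both regions (adjusted exact p between 3.1e-06 and 0.00637), whereas Meg3 was lower in the DG of section 1 (adjusted exact p = 0.000343 and 0.00165) and did not pass in the CA1. Rn45s showed no such pattern in the CA1, where its share was 1.81% in section 1 and 1.90% and 1.71% in the others, and none of its pairs passed. The summed UMIs of the 5 RNAs were 1.29 (DG) and 1.66 (CA1) times those of the ribosomal protein genes in section 1, and 3.03 to 4.81 times in the other libraries. The part of section 1's depth and ribosomal protein share in these differences was not tested.

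The ratios between the RNAs within a library do not depend on the library's total. Malat1 made up 46.9% ± 3.36 (DG) and 45.1% ± 3.23 (CA1) of the UMIs of the 5, Meg3 22.4% ± 2.22 and 23.4% ± 1.83, and Rn45s 20.2% ± 2.84 and 20.3% ± 3.37 (SD, n = 3). Snhg11 made up 7.43% ± 0.905 and 7.30% ± 0.655, and Kcnq1ot1 3.02% ± 0.226 and 3.86% ± 0.987. The order Malat1, Meg3, Rn45s, Snhg11, Kcnq1ot1 held in sections 2 and 3 of both regions, and in section 1 Rn45s stood ahead of Meg3 in both.

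**Figure D3:**
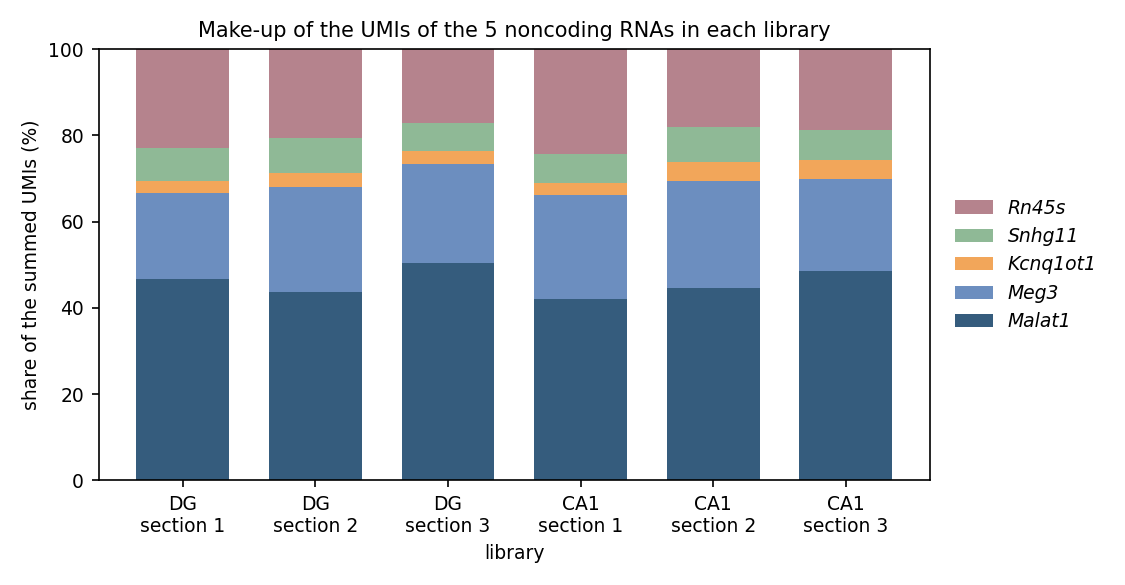
Share of each RNA (percent, y axis) in the summed UMIs of the 5 noncoding RNAs, stacked to 100%, for the DG and CA1 libraries of sections 1 to 3 (x axis). Malat1 takes 42.1% to 50.4% of each bar, and the make-up differs little between the regions.

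Of the 10 pairs of RNAs, 0 separated the regions in their UMI ratios, and the lowest exact permutation p was 0.2. Meg3 and Rn45s were the closest in UMIs. In the DG the ratio of Meg3 over Rn45s was 0.874, 1.19 and 1.34 in sections 1, 2 and 3, and in the CA1 it was 0.994, 1.37 and 1.14. The exact 95% counting interval of the ratio held 1 in 6 of 6 libraries, with bounds from 0.715 to 1.98 over all of them. The ratio of Malat1 over Meg3 was 2.33, 1.80 and 2.19 (DG) against 1.75, 1.80 and 2.27 (CA1), with overlapping intervals. Of the 10 pairs, 2 had the same sign of the regional difference in 3 of 3 sections, those of Kcnq1ot1 with Malat1 and with Snhg11. The shares over pairs of all tested genes were not computed, so neither count is a result about these pairs.

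Malat1 over Kcnq1ot1 was 16.2, 13.3 and 17.4 in DG libraries against 15.5, 10.2 and 10.8 in CA1 libraries. The log2 difference between the regions was 0.07, 0.38 and 0.68, with a mean of 0.38 (SD 0.308, exact permutation p = 0.2). Snhg11 also took a larger multiple of Kcnq1ot1 in the DG: Kcnq1ot1 over Snhg11 was 0.375, 0.400 and 0.452 there and 0.396, 0.542 and 0.645 in the CA1, a mean log2 difference of -0.34 (SD 0.233, exact permutation p = 0.3). The counts of 12 to 27 Kcnq1ot1 UMIs leave the intervals wide, from 5.78 to 19.7 for Malat1 over Kcnq1ot1 in the CA1 of section 2. Nearest to 0 were the mean log2 differences of Snhg11 over Rn45s (0.03, SD 0.196) and of Malat1 over Snhg11 (0.03, SD 0.119), each with an exact permutation p of 1.

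**Figure D4:**
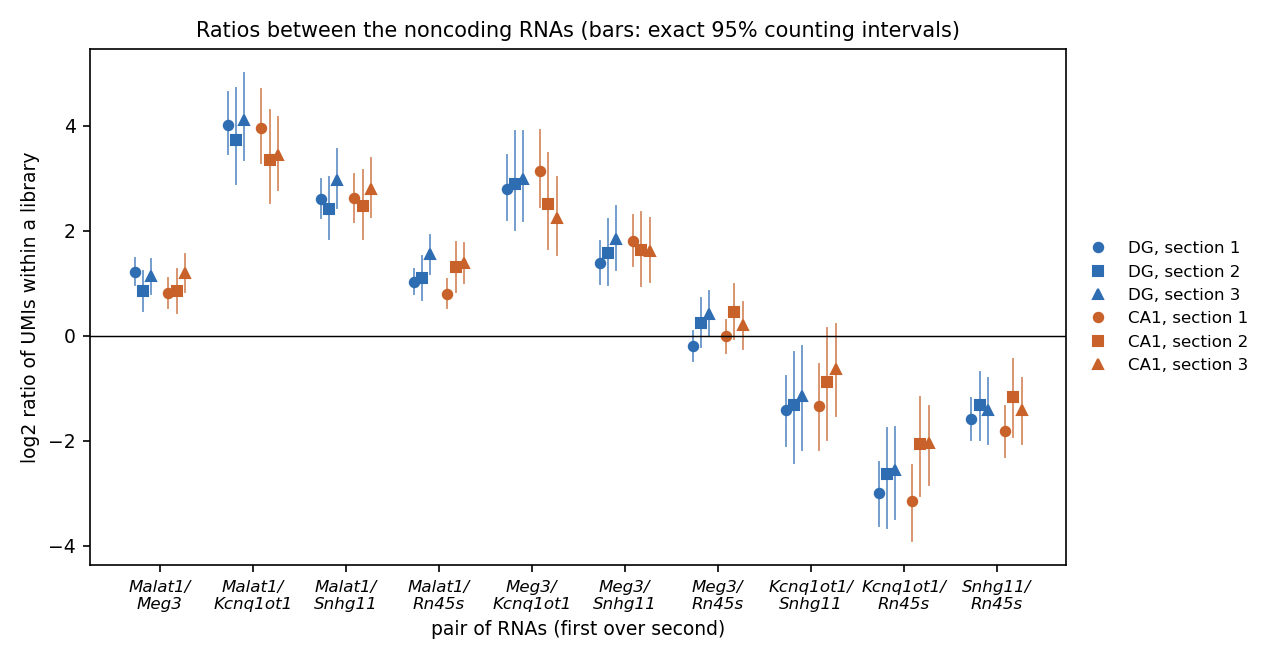
The log2 ratio of UMIs of the first RNA over the second (y axis) within each library, for the 10 pairs (x axis), in the DG (blue) and the CA1 (orange), with circles, squares and triangles for sections 1, 2 and 3 and exact 95% counting intervals as bars. The regions overlap in 10 of 10 pairs, and Meg3 over Rn45s lies around 0.

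Across the 6 libraries the levels of the RNAs varied together. Measured by Pearson's r of log2(CPM + 1) over the 6 libraries, among 42 other tested genes, the gene most like Malat1 was Kcnq1ot1 (0.94), the gene most like Meg3 was Snhg11 (0.92), and that most like Rn45s was Prkcb (0.88), a protein kinase C gene. The genes next most like Malat1 were Meg3 (0.90) and Snhg11 (0.84). Arpp21, a neuronal phosphoprotein gene, was among the 3 genes most like Meg3 (0.89). The r between Malat1 and Rn45s, 0.64, was the lowest of the 10 pairs. These points share 3 sections and library totals, and the values are a description without a test.

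Genes that surround or accompany these RNAs were almost unseen. Of 8 genes of the imprinted cluster around Meg3 3 were listed, and beside Meg3 these were Rian with 7 UMIs over all libraries and Mirg with 1, both noncoding RNAs of the cluster. Of 12 genes of the Kcnq1 domain 5 were listed, and the 4 others than Kcnq1ot1 had 1 to 6 UMIs, the growth inhibitor Cdkn1c having 1. Near Malat1, 3 of 6 genes were listed with 1 UMI each, among them Neat1, the scaffold RNA of paraspeckles. For Neat1 the 1 UMI in the DG of section 3 stands against 243 of Malat1 there. None of these genes could be compared between regions at this depth.

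Among protein genes of nuclear speckles and paraspeckles 14 of 18 were listed, 6 of them with at least 10 UMIs. Of these, 2 (Srrm2 and Son) were among the 43 tested genes and did not pass. In the edgeR fit with a filter of 10 UMIs in total, 0 of the 6 passed, and 0 of all 999 genes did. Srrm2, a speckle scaffold protein, had 40, 10 and 17 UMIs (DG) against 21, 2 and 18 (CA1), and Son, another speckle scaffold, had 31, 9 and 15 against 21, 6 and 13. Their edgeR log2 fold changes were 0.10 (SE 0.364) and -0.15 (SE 0.356), on either side of 0, each with an adjusted p of 0.910. Srsf11, Sfpq, Srrm1 and Srsf5 had 28, 17, 15 and 12 UMIs over all libraries.

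Of 20 small nucleolar RNA host genes 14 were listed, and beside Snhg11 with 236 UMIs the 13 others had 65 together. The highest were Gas5 with 20 and Snhg14, the host gene of the imprinted Ube3a region, with 13. No host gene beside Snhg11 was among the 43 tested genes. In the edgeR fit with a filter of 10 UMIs in total 0 host genes passed, and 0 of all 999 genes did. Of 13 ribosomal RNA transcripts and relatives Rn45s was the only 1 listed. Genes of RNA polymerase I and the nucleolus numbered 11 of 20 listed, with 1 to 9 UMIs each, so they could not be compared.

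Of 35 other brain long noncoding RNAs 19 were listed, with 169 UMIs together, fewer than the 236 of Snhg11 alone. Xist, the RNA that coats the inactive X chromosome, held 88 of them, with 40, 9 and 12 from the DG against 16, 4 and 7 from the CA1. Its edgeR log2 fold change of 0.53 (SE 0.371, adjusted p = 0.650) was of the opposite sign to those of the 5 RNAs and did not pass. Miat, a nuclear RNA of neurons, had 20 UMIs, and the other listed members of this list apart from Snhg14 had fewer than 10 each.

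Other cells in the illuminated areas were also read by their markers. Oligodendrocyte markers (7 of 8 listed, Mbp among them and Mag not) took 0.503% to 0.800% of the DG and 0.668% to 0.994% of the CA1 libraries, higher in the CA1 in 3 of 3 sections like the 5 RNAs. Astrocyte markers (5 of 8 listed, Gfap not among them) took 0.272% to 0.372% (DG) and 0.278% to 0.391% (CA1), and were also higher in the CA1 in 3 of 3 sections. Their shares in the DG and the CA1 were close in section 1 (0.272% against 0.278%) and section 2 (0.372% against 0.387%). Neither marker sum was set against counting error, and 37.2% of the tested genes were lower in the DG in 3 of 3 sections. Microglial markers (3 of 8), endothelial markers (2 of 6) and interneuron markers (5 of 8) each took under 0.1% of every library. The part of these cells in the levels of the 5 RNAs was not tested.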

How the data were processed

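RNA counts of 3 sections were examined (6 libraries, DG and CA1 of each). Per the methods and the submitters' processing notes, the authors extracted UMIs of 6 bases with umi_tools, split reads by area barcode with cutadapt 4.1, mapped them to mm10 with STAR 2.7.9a, assigned them to genes with featureCounts (Subread 2.0.3) and counted UMIs per gene. The deposited counts have 1 added to every gene in every library; 1 was subtracted here, and a line of totals was left out. The authors' CPM and ratio columns were not used.

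A share is a gene's UMIs over the library's sum. Tests over all genes used edgeR 4.0.16 (quasi-likelihood, TMM, filterByExpr with minimum count 10, R 4.3.3), with DESeq2 1.42.0 as an alternative. Permutation and Fisher's exact tests used scipy 1.17.1. Fisher p-values were adjusted over all 43 tested genes in place of the 5 RNAs alone. On simulated data for the DG against the CA1 (7507 genes, 30 runs), the test called 46.8% of the tested changed genes at 2-fold, 98.4% at 4-fold and 100% at 8-fold, with 16 of 1176 unchanged genes called in those runs (1.36%) and 0 of 1297 in runs without change. The simulated spread was set and not estimated from these data. Changes smaller than 2-fold, as those of the 5 RNAs were on average, were not simulated.

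The DG and CA1 of 1 section are areas of the same tissue, so section numbers pair them. Their deviations from the region means correlated at 0.154, 0.0414 and 0.0724 over 999 genes. The chosen fit has no block, as the study averages within a region.

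RefSeq models of GRCm38.p6 matched 7187 of 7507 listed genes. The 5 RNAs, the 8 other gene lists and the 7 marker lists were chosen with earlier results of these data known. Named genes are the 5 RNAs, list genes with at least 10 UMIs and the 3 genes most like each RNA, and others as stated. Some genes and a sequence that this rule covers are not reported here. The alternatives were other scalings, filters and tools, counts as deposited, correction for UMI collisions, section as a block, and leaving out sections and libraries.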

Additional observations from a re-analysis of the deposited data

How the results depend on the processing

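The count of called genes stayed at 0 in all alternatives but 1, and leaving out any section or library gave 0 to 0. With section as a replicate block it was 0, and without the low-count filter but with the replicate block it was 1 (Prkce, a protein kinase C gene). The edgeR log2 fold changes of the 5 RNAs were below 0 in 90 of 90 alternatives, the block included, and none passed. In the 43-gene fit with the block they were -0.21 for Malat1, -0.37 for Meg3, -0.55 for Kcnq1ot1, -0.25 for Snhg11 and -0.32 for Rn45s.

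The log2 ratio of shares kept its sign in 74 of 75 alternatives. With counts as deposited it was 0.0099 for Malat1, -0.11 for Meg3, -0.36 for Kcnq1ot1, -0.031 for Snhg11 and -0.055 for Rn45s. The added counts make up more of the smaller CA1 totals. For Snhg11 it was -0.40 with the 5 RNAs left out of the total, -0.39 from pooled counts, -0.35 with sections 2 and 3 counted as 1 sample and -0.26 over the UMIs of the other tested genes, the last 2 chosen after seeing the data. Leaving out a section or a library gave -0.51 (without CA1 section 1) to -0.13 (without DG section 1) for Malat1, -0.62 (without DG section 2) to -0.17 (without DG section 1) for Meg3, -1.07 (without CA1 section 1) to -0.48 (without DG section 1) for Kcnq1ot1, -0.55 (without DG section 2) to -0.18 (without CA1 section 2) for Snhg11 and -0.52 (without DG section 2) to -0.29 (without section 1) for Rn45s. Leaving out 1 library breaks the pairing of a section, and section 1 had the lowest shares of Malat1, Meg3, Kcnq1ot1 and Snhg11 in both regions.

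The pair ratios moved by less than the spread between sections in 60 of 60 alternatives, of which 53 kept the sign. Mean shares fell outside the spread over libraries only with counts as deposited, in 5 of 65 alternatives. Depth limits the comparison most for Kcnq1ot1, with 12 to 27 UMIs a library.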
